A study of Canis lupus familiaris with 77 samples.

Results

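miR-21 was followed across the 16 tissues of a beagle dog miRNA atlas measured by miR-seq, the sequencing of small RNA of miRNA length. It is the single row of the deposited table whose name begins with cfa-miR-21 and goes on with its human and rat counterparts, 1 of 650 miRNAs with a read, and those counterparts are the 5p arm of the hairpin. The tissues came from 5 untreated male Marshall Beagle dogs, 10 months of age, perfused with buffered saline before the organs were taken. They were liver, heart, testis, lung, skeletal muscle, kidney, thymus, brain, sciatic nerve, pancreas, duodenum, jejunum, ileum, colon, bone marrow and plasma, with 5 libraries in each of 14 tissues, 4 in colon and 2 in sciatic nerve, 76 in all. No animal was treated, so the comparison is between tissues, and the question was in which tissues miR-21 is abundant and how steady its level is among dogs. The study's methods and results describe the sciatic nerve samples differently, as a pool that was split or as single samples beside a pool, so whether both libraries come from separate dogs is not settled.

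miRNAs are short RNAs that guide Argonaute proteins to messenger RNAs and lower their translation and stability. miR-21 is abundant in many mammalian cell types, is raised in inflammation, fibrosis and many tumours, and is known to repress PDCD4 and Sprouty genes, which restrain growth. It has also been put forward as a marker of tissue injury in blood, where a marker is most useful if 1 organ is its main source. RefSeq's gene table for a German Shepherd assembly (UU_Cfam_GSD_1.0) names the gene MIR21, of biotype miRNA, on chromosome 9.

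Levels are given as RPM, the count of an miRNA scaled to the reads on all miRNAs of its library. This is a share, and it falls when another miRNA takes more of the reads. In bulk tissue, fewer cells that contain an miRNA and less of it per cell cannot be told apart. The libraries held 157871 to 7896424 reads on miRNAs, and miR-21 had from 137 reads (Skeletal Muscle 5) to 324414 reads (Ileum 1), so counting error was small beside the spread between dogs in all but the thinnest libraries. Most libraries carried the miRNAs known for their tissue. The hepatocyte miR-122 was at 19138 to 29156 RPM in liver, the neuronal miR-9 and miR-124 summed to 23829 to 44790 RPM in brain, the acinar miR-216a, miR-216b and miR-217 to 11952 to 17110 RPM in pancreas, and the 7 striated muscle miRNAs to 44222 to 112875 RPM in heart. The germ cell miRNAs (miR-34b, miR-34c, miR-449a, miR-202) summed to 57912 to 107407 RPM in 3 testis libraries, to 5368 RPM in Testis 2 and to 639 RPM in Testis 3. The striated muscle miRNAs summed to 39180 to 116406 RPM in 4 skeletal muscle libraries and to 735 RPM in Skeletal Muscle 4. Thymus 1 and 4 were led by miR-181a, an miRNA of developing T cells, whereas Thymus 2, 3 and 5 were led by miR-10b. The edgeR differences of testis, thymus and skeletal muscle from the other tissues are also given without these libraries. Other results include them unless stated.

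miR-21 was highest in the intestine below the duodenum and in liver, and lowest in heart, skeletal muscle, brain and sciatic nerve. The ileum had the highest median, 57124 RPM, and the heart the lowest, 1647 RPM, a fold of 34.7. Every one of the 76 libraries had miR-21 reads, and together they gave 1.89% of all reads on miRNAs. Tissue medians were above 100 RPM in all 16 tissues, which held for 60 miRNAs.

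**Figure D1:**
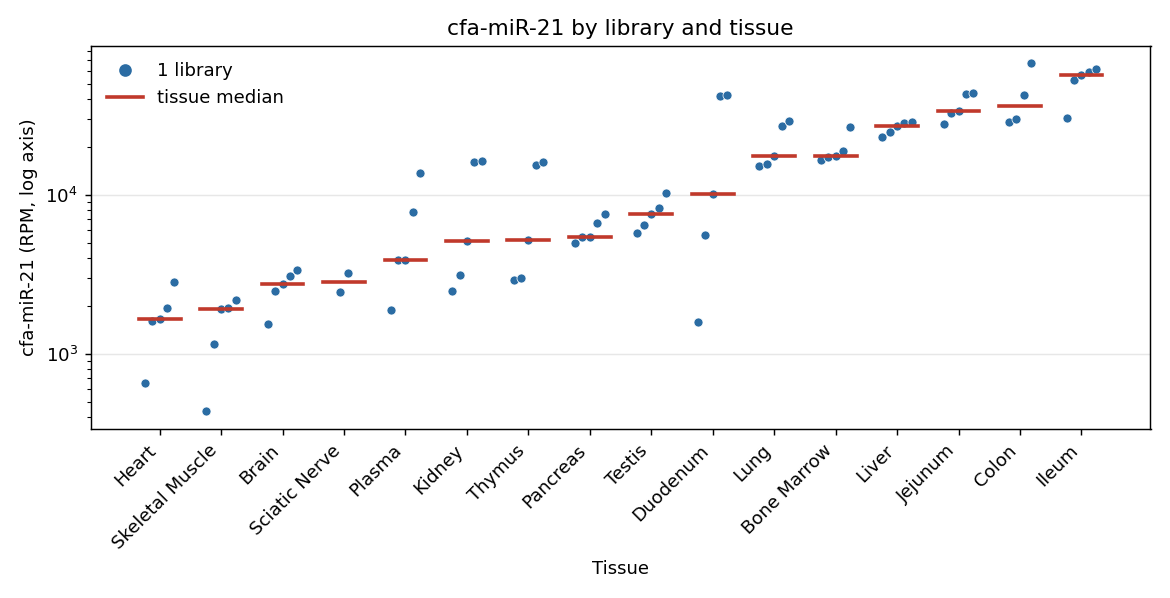
miR-21 level of each library (points, RPM, log axis) in the 16 tissues ordered by their median (red lines). The 17 libraries of the 4 tissues on the left lie between 434 and 3350 RPM and the 19 libraries of the 4 tissues on the right between 23017 and 67178 RPM, while duodenum, kidney, thymus and plasma spread widely.

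In the ileum, the last stretch of small intestine, the 5 libraries had 53030, 61775, 57124, 30603 and 58868 RPM of miR-21. The 4 colon libraries had 30058, 28850, 42608 and 67178 RPM. The jejunum libraries had 32831, 33706, 43498, 43106 and 27952 RPM. Colon overlapped both other tissues, and Ileum 4 was the only ileum library inside the range of the jejunum. In liver the values were 24921, 28742, 27167, 23017 and 28465 RPM, the narrowest range of any tissue with 5 libraries, with a highest value 1.25 times the lowest. In edgeR's quasi-likelihood test of a tissue against the mean of the other 15, with Benjamini-Hochberg adjustment over 480 miRNAs, miR-21 was higher in ileum by 2.45 on the log2 scale (SE 0.24, adjusted p = 8.67e-14), and 19% of the miRNAs tested were called higher there. In colon it was higher by 2.30 (SE 0.26, adjusted p = 4.55e-11), with 18.5% of miRNAs called higher. In jejunum it was higher by 2.08 (SE 0.25, adjusted p = 8.61e-11), with 27.3% called higher. In liver it was higher by 1.70 (SE 0.26, adjusted p = 8.87e-08), with 23.3% called higher. None of the 6 pairs among these 4 tissues was called in edgeR (lowest adjusted p = 0.19). Duodenum was not called against colon, jejunum or liver either (adjusted p = 0.18, 0.25 and 0.38 in edgeR), and was called against ileum at 0.0499. Lung was not called against liver (adjusted p = 0.21 in edgeR) and was called against the others. The pair tests thus do not set the 4 apart as a group. Outside the 4 tissues, 5 of 57 libraries lay above the lowest liver library.

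The gut and liver also share other abundant miRNAs. The 3 miRNAs of gut epithelium, miR-192, miR-194 and miR-215, summed to medians of 383825 RPM in jejunum, 187632 in ileum, 186088 in liver and 165538 in colon, against 840 RPM in skeletal muscle and 1088 in heart. The 5 leukocyte miRNAs (miR-142, miR-146a, miR-150, miR-155, miR-223) summed to medians of 22423 RPM in ileum, 11441 in colon, 9180 in jejunum and 4363 in liver, against 475 in skeletal muscle and 567 in heart. Of these 5, all were called higher in ileum by edgeR, where 19% of all miRNAs tested were, 4 in colon (18.5% of all) and 4 in jejunum (27.3% of all). In liver 2 were called higher and 1 lower, beside 23.3% and 12.5% of all miRNAs tested. Bone marrow and plasma, with leukocyte sums of 20482 and 24030 RPM, had less miR-21 than liver, so the order of tissues by the leukocyte sum is not that of miR-21. The gut epithelium sum had medians of 47863 RPM in kidney and 27211 in pancreas, against 2958 in lung and 1861 in bone marrow. Lung and bone marrow had the higher medians of miR-21, so the order by this sum also differs. The part of either cell type in the level of miR-21 was not tested.

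The low tissues were those of striated muscle and the nervous system. Heart had 1931, 1596, 2830, 653 and 1647 RPM. Skeletal muscle had 1906, 1151, 2171, 1951 and 434 RPM. Heart 4 and Skeletal Muscle 5 were the lowest libraries of the atlas for miR-21 and the other values of both tissues overlapped. Brain libraries had 3350, 2739, 3064, 2483 and 1534 RPM, and the sciatic nerve libraries 3228 and 2463 RPM. Against the mean of the other tissues miR-21 was lower in brain (log2 difference -3.10, SE 0.40, edgeR adjusted p = 2.22e-10), where 28.1% of miRNAs were called lower. The log2 difference was -2.43 in heart (SE 0.38, adjusted p = 1.66e-07 in edgeR), with 17.3% called lower. It was -2.30 in skeletal muscle (SE 0.38, adjusted p = 6.06e-07 in edgeR), with 16.5% called lower. It was -2.21 in sciatic nerve (SE 0.58, adjusted p = 0.0015 in edgeR), with 14.4% called lower. The nerve call rests on both libraries. Without Sciatic Nerve 1 the log2 difference was -2.42 (adjusted p = 0.057) and without Sciatic Nerve 2 it was -1.91 (adjusted p = 0.11). Without Skeletal Muscle 4, the library with few muscle miRNAs, the skeletal muscle difference was -2.34 (adjusted p = 1.09e-05 in edgeR). Brain 3 held 23995 RPM of the gut epithelium miRNAs against 2637 to 3202 RPM in the other brain libraries, and without it the brain difference was -3.30 (adjusted p = 3.82e-09 in edgeR). The scaling moved the brain value, where the log2 difference was -2.02 with library totals alone and -2.08 relative to the 3 normalisation miRNAs of the study, scalings that moved the median difference of all miRNAs in brain by 1.09 and 1.05.

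**Figure D2:**
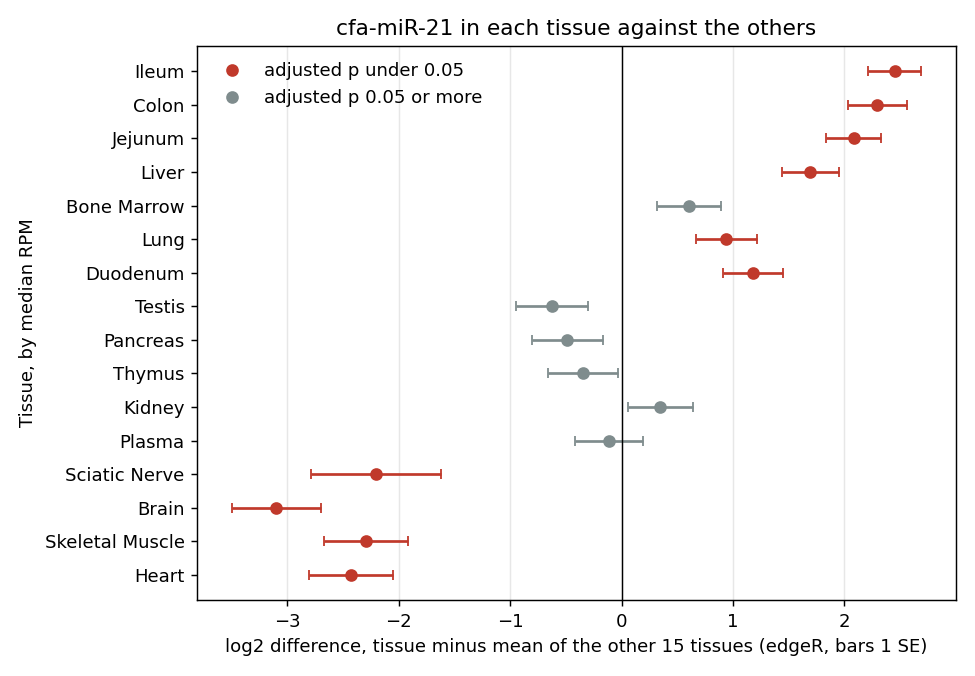
log2 difference of miR-21 between each tissue and the mean of the other 15 tissues in edgeR (points, with bars of 1 SE), tissues ordered by median RPM. Red points have an adjusted p under 0.05, and they are the 4 lowest tissues from -3.10 to -2.21, and duodenum, lung, liver, jejunum, colon and ileum from 0.94 to 2.45.

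Between these ends lay tissues of middle level and small spread. The pancreas libraries had 6663, 4968, 5437, 7549 and 5415 RPM of miR-21. Testis had 7612, 8311, 10199, 6471 and 5763 RPM, and its highest value came from Testis 3, the library poorest in germ cell miRNAs. Pancreas was not called against the mean of the others (log2 difference -0.49, SE 0.32, edgeR adjusted p = 0.25), and neither was testis (-0.62, SE 0.32, adjusted p = 0.10 in edgeR), at 40.4% and 50% of miRNAs called in either direction. Without Testis 2 the log2 difference of testis was -0.81 (adjusted p = 0.074 in edgeR), and without Testis 3 it was -1.08 (adjusted p = 0.019 in edgeR). With Thymus 2, 3 and 5 left out as well it was -1.29 (adjusted p = 0.0058 in edgeR). Lung had 15709, 15228, 29151, 17528 and 27252 RPM, and bone marrow 17596, 17224, 16441, 26686 and 18730 RPM. The range of bone marrow lay inside that of lung. Lung was called higher than the mean of the others (log2 difference 0.94, SE 0.28, edgeR adjusted p = 0.0057; 20.6% called higher), and bone marrow was not (0.60, SE 0.29, adjusted p = 0.085 in edgeR; 41% called in either direction). Both calls depended on the scaling. With RLE size factors, the method of DESeq2, lung was at 0.46 (adjusted p = 0.22) and bone marrow at 0.95 (adjusted p = 0.0015). The direct edgeR comparison of lung with bone marrow was not called. Bone marrow also passed the threshold in 42 of the 76 fits that left out 1 library, and testis in 38 of 76.

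Plasma was the only fluid in the atlas, and its miRNAs are those released or carried by blood cells and by organs. The 5 plasma libraries had 1874, 13763, 3869, 7781 and 3893 RPM of miR-21, so Plasma 2 was 7.34 times Plasma 1. miR-486, an miRNA of red cells and muscle, took 42.3% to 76.1% of the reads in these libraries, and the highest share was in Plasma 1 and the lowest in Plasma 2, the libraries with the lowest and the highest miR-21. The 3 red cell miRNAs (miR-144, miR-451, miR-486) summed to 543769 to 815725 RPM in plasma, so the RPM of every other miRNA shares what is left. The part of this in the plasma level of miR-21 was not tested. The edgeR difference from the mean of the other tissues was -0.11 (SE 0.31, adjusted p = 0.98), with 52.7% of miRNAs called in either direction. Relative to the 3 normalisation miRNAs it was -1.52 (adjusted p = 1.97e-06), with the median difference of all miRNAs moved by -1.02, and miR-16, 1 of the 3, which red cells also carry in quantity, was higher in plasma by 3.11 on the log2 scale (adjusted p = 1.86e-23 in edgeR).

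Duodenum, thymus and kidney each held libraries with high and with low miR-21. The duodenum libraries had 41624, 42483, 5620, 1583 and 10153 RPM, a range of 26.8 times and the widest of any tissue. Duodenum 1 and 2 lay within the range of jejunum and ileum, and Duodenum 4 within that of the heart. miR-192, an miRNA of gut epithelium, was at 267076, 385247, 22363, 5188 and 77588 RPM in the same order, and miR-142, an miRNA of leukocytes, at 6346, 8984, 343, 236 and 1335 RPM. miR-143, an miRNA of smooth muscle, went the other way, with 132689, 84748, 604122, 408300 and 209375 RPM, and led Duodenum 3, 4 and 5. The 3 gut epithelium miRNAs summed to 327964 and 521024 RPM in Duodenum 1 and 2 and to 5976 to 88623 RPM in the others. The 5 epithelium miRNAs (miR-200a, miR-200b, miR-200c, miR-141 and miR-429) summed to 6005 and 19673 RPM against 207 to 2556 RPM, and the 5 leukocyte miRNAs to 11414 and 13333 RPM against 1004 to 4906 RPM. miR-21 thus was high where the epithelial and leukocyte miRNAs were high and low where that of smooth muscle led, and their part in the level of miR-21 was not tested. In the epithelium list the entries of miR-200a and miR-200b are 5p arms by name. Their tissue medians were at most 103 and 43.7 RPM, so they add little to the sum. The edgeR difference of duodenum from the others was 1.18 (SE 0.27, adjusted p = 4.1e-04; 21% of miRNAs called higher). It rested on single libraries, being 0.55 without Duodenum 2 (adjusted p = 0.21) and 2.11 without Duodenum 3, 4 and 5.

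Thymus had 16062, 3002, 2906, 15436 and 5179 RPM of miR-21. Thymus 1 and 4, the libraries led by miR-181a at 426312 and 500018 RPM, lay above the other 3 with no overlap. miR-142 was at 14022 and 8991 RPM in these libraries and at 234 to 335 RPM in the other 3. miR-150, an miRNA of mature lymphocytes, was at 2543 and 2689 RPM against 57.0 to 197 RPM. The 5 leukocyte miRNAs summed to 20813 and 21390 RPM in Thymus 1 and 4 and to 1115 to 1964 RPM in Thymus 2, 3 and 5, where miR-143 was at 92135 to 132995 RPM. The part of this difference in the level of miR-21 was not tested. Over all 5 libraries the edgeR difference was -0.35 (SE 0.31, adjusted p = 0.48; 26.5% of miRNAs called in either direction), and with Thymus 2, 3 and 5 and Testis 3 left out it was 0.73 (adjusted p = 0.27), so its direction depended on these libraries.

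Kidney had 16239, 16043, 3132, 5139 and 2491 RPM of miR-21, with Kidney 1 and 2 above the other libraries. Here the marker lists did not separate the libraries in the same way. miR-192 was at 31926 and 47962 RPM in Kidney 1 and 2 and at 39101 to 56013 RPM in the others, all 5 libraries were led by miR-10b, and the leukocyte miRNAs summed to 325 to 470 RPM in all 5. The epithelium miRNAs were higher in Kidney 1 and 2, with 1282 and 1188 RPM against 238 to 380 RPM, and miR-126, an endothelial miRNA, was at 10547 and 12688 RPM against 4608 to 6254 RPM. miR-143, which ran opposite to miR-21 in duodenum and thymus, was higher in Kidney 1 and 2, with 30646 and 49213 RPM against 16153 to 20045 RPM. miR-142 was low in all kidney libraries and highest in Kidney 1 and 2, with 272 and 188 RPM against 85.6 to 170 RPM. miR-10b was lower in Kidney 1 and 2, with 343161 and 297875 RPM against 445638 to 547844 RPM. Whether these differences have a part in the level of miR-21 was not tested. The study also reports very low RNA integrity in a subset of its kidney samples, and the labels do not say which. Kidney was not called against the mean of the other tissues in edgeR (log2 difference 0.35, SE 0.29, adjusted p = 0.44; 34.4% called in either direction), and without Kidney 2 the log2 difference was -0.23 (adjusted p = 0.80).

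**Figure D3:**
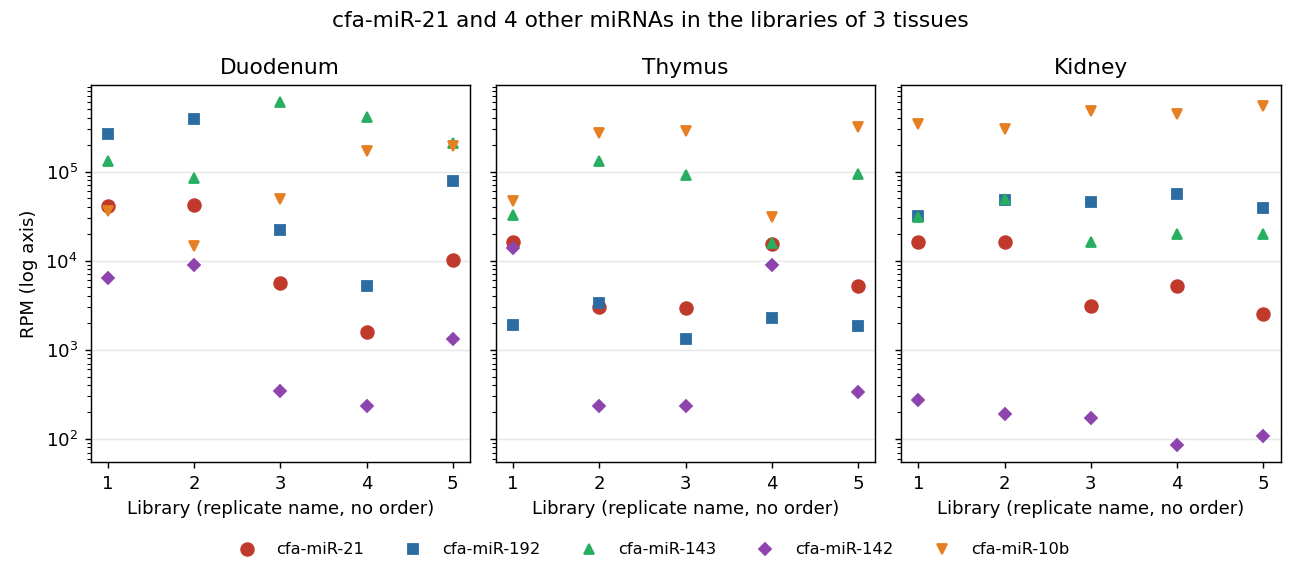
RPM (log axis) of cfa-miR-21 and of miR-192, miR-143, miR-142 and miR-10b in the 5 libraries of duodenum, thymus and kidney. miR-21 (red circles) and miR-142 (purple diamonds) are high together in Duodenum 1 and 2 and in Thymus 1 and 4. In kidney miR-21 is high in libraries 1 and 2, where miR-142 and miR-143 are also highest, while miR-192 stays between 31926 and 56013 RPM.

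Neighbours in the order of tissue medians overlapped in every case. Of 15 neighbouring pairs, 0 had an adjusted p under 0.05 in a two-sided exact permutation test of the mean log2(RPM + 1). The unadjusted p was under 0.05 in 2 pairs. Liver was above bone marrow by 0.47 on the log2 scale (exact p = 0.024, adjusted p = 0.18), and jejunum above liver by 0.44 (exact p = 0.024, adjusted p = 0.18). For 5 against 5 libraries the smallest p this test can give is 0.0079, and for 5 against the 2 of sciatic nerve it is 0.095, so a single pair could not pass after adjustment over 15. edgeR, which shares 1 estimate of the spread over all tissues and is adjusted over the miRNAs of a pair, called 3 of the 15 pairs. Plasma was above sciatic nerve by 1.96 on the log2 scale (adjusted p = 0.0049 in edgeR), duodenum above testis by 1.69 (adjusted p = 8.49e-04 in edgeR) and liver above bone marrow (log2 difference of bone marrow from liver -1.02, adjusted p = 0.047 in edgeR). In the permutation test plasma was above sciatic nerve by 0.82 (exact p = 0.48) and duodenum above testis by 0.55 (exact p = 0.54). The duodenum libraries ranged from 1583 to 42483 RPM.

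Across all 120 tissue pairs, edgeR called miR-21 in 86, against a median of 53 pairs for the 480 miRNAs tested and 41.9% of all combinations of miRNA and pair. As many pairs or more were called for 7 miRNAs, miR-21 among them. All 48 pairs between heart, skeletal muscle, brain or sciatic nerve and 1 of the other 12 tissues were called, each with miR-21 lower in the former, by log2 differences of -5.20 (brain against ileum) to -1.48 (highest adjusted p = 0.041 in edgeR). None of the 6 pairs among these 4 tissues was called (lowest adjusted p = 0.11 in edgeR). The 4 were picked for their low medians of miR-21, so the 48 calls describe this order and are not an independent test of it. All these calls are with TMM scaling. As a ratio to the normalisation miRNAs, the plasma median (0.542) was below those of brain (0.589), heart (0.593) and skeletal muscle (0.608). The pancreas median (0.994) was close to that of sciatic nerve (0.984) on that scale. Ileum was called higher than each of 12 tissues, jejunum and colon than 11, and liver than 10. The pairs share libraries, so their calls are not independent. Plasma was not distinguished from bone marrow, kidney, pancreas, testis or thymus.

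By the criteria of the study miR-21 was enriched in no tissue. Enrichment asks for a fold above 5 over the mean of the remaining libraries and for an adjusted p under 0.05 in a rank-sum test, and 2 of the 516 miRNAs tested in ileum (0.388%) met them, as did 0.389% in colon, 1.8% in jejunum and 1.91% in liver. The mean of the ileum, 52280 ± 12524 RPM (SD, n = 5), was 3.69 times the mean of the other libraries, the highest ratio of any tissue. The ratio was 2.77 for colon (42174 ± 17793 RPM, n = 4), 2.37 for jejunum (36219 ± 6829 RPM, n = 5) and 1.66 for liver (26462 ± 2447 RPM, n = 5). By the exact rank-sum test, two-sided, the adjusted p was 0.0055 in ileum, where 4.26% of miRNAs passed, and 0.032 in jejunum, where 8.4% passed. It was 0.19 in liver (13.3% passed) and 0.21 in colon (0.973% passed), so liver and colon were called higher by edgeR and not by the rank test. In the other direction the adjusted p of the exact test was 0.0063 in heart, 0.0046 in skeletal muscle and 0.024 in brain, where 18.1%, 21.5% and 55.5% of miRNAs passed. Leaving out any 1 of the jejunum libraries raised its adjusted p to between 0.059 and 0.096 in the exact test. The ileum call was lost without Ileum 2 (exact test, adjusted p = 0.0504) or Ileum 3 (0.051), and the brain call without Brain 4 (0.051) or Brain 5 (0.086). The ileum median was 0.85 times the highest library outside it, Colon 5, and no tissue reached the multiple of 5 asked of highly enriched miRNAs.

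In its Q-RT-PCR panel the study took miR-21 and miR-192 as possible liver miRNAs beside miR-122 and miR-885. Also compared here were miR-193a, miR-193b and miR-200a, which the study assayed from the literature with no organ named, and miR-200b and miR-200c of the same family as miR-200a. miR-122, the main miRNA of hepatocytes, had a median of 22008 RPM in liver and at most 58.9 RPM in any other tissue, in sciatic nerve. The liver median of miR-21, 27167 RPM, was above that of miR-122, but miR-21 had still higher medians in jejunum, colon and ileum. miR-192 too was higher in gut than in liver, with 176166 RPM in liver and 302243 RPM in jejunum. miR-885 had 207 RPM in liver, 875 RPM in brain and 143 RPM in jejunum. Its jejunum libraries (98.2 to 248 RPM) overlapped those of liver (179 to 338 RPM). Of these 8 miRNAs 4 were called higher and 1 lower in liver by edgeR, beside 23.3% and 12.5% of all miRNAs tested, with a median log2 difference of 1.68 against -0.36 for all miRNAs tested. miR-122 had the largest, 13.14 (adjusted p = 1.32e-39 in edgeR), followed by miR-885 with 4.96 (adjusted p = 1.98e-22 in edgeR). The study had chosen both for liver from this same atlas, so their calls follow from that choice. The count over the 8 miRNAs is therefore a description only.

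As a ratio to miR-16, miR-29a and miR-186, the miRNAs with which the study normalised its Q-RT-PCR, miR-21 was steadier within most tissues. The ratio divides the RPM of miR-21 by the geometric mean RPM of the 3. In heart it was 0.629, 0.593, 0.629, 0.546 and 0.539, a range of 1.17 times, whereas the RPM ranged over 4.34 times. In colon it was 8.27, 8.17, 8.97 and 9.24, a range of 1.13 times against 2.33 times in RPM. The range was narrower as a ratio than as RPM in 11 of 16 tissues, and the share of the log2 variance that lay between tissues was 89.7% for the ratio and 81.4% for RPM. The latter was close to the median of 80.5% over the 266 highly expressed miRNAs, and no such median was computed for the ratio. Counts scaled by edgeR's TMM factors came near the ratio, with a narrower range than RPM in 10 tissues and a share of 87.2%. Sciatic nerve, testis, lung, bone marrow and liver had the wider range as a ratio. Duodenum, from 1.17 to 8.12, and kidney, from 1.31 to 4.89, stayed wide on this scale, and thymus narrowed to 1.23 to 2.18. On the ratio scale the order changed at both ends, with plasma lowest (median 0.54) and colon highest (8.62), and the fold between the highest and lowest tissue was 15.9. The 3 miRNAs are not equal across tissues either. In edgeR 2 of 3 were called lower in brain, where 28.1% of all miRNAs tested were, and 2 were called higher in plasma, where 27.9% were.

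**Figure D4:**
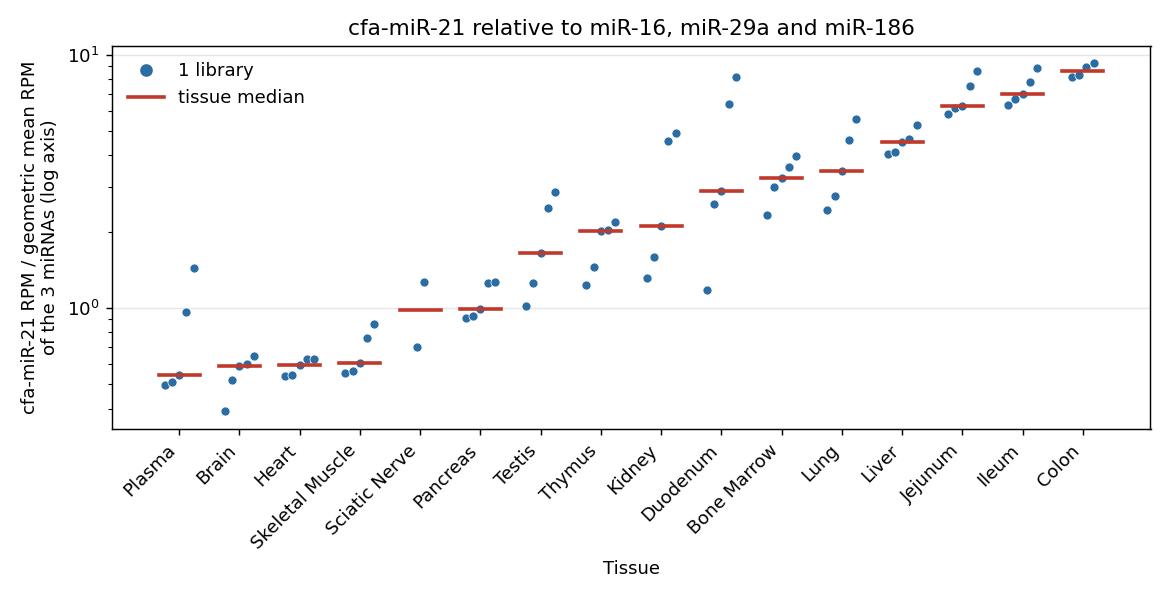
Ratio of miR-21 to the geometric mean of miR-16, miR-29a and miR-186 in each library (points, log axis), tissues ordered by the median ratio (red lines). Heart libraries lie between 0.539 and 0.629 and colon libraries between 8.17 and 9.24, and duodenum and kidney stay wide.

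Within a library, miR-21 was among the most abundant miRNAs in ileum, colon and jejunum and ranked lower in muscle and brain. Its lowest place in any library was 55, among 650 miRNAs with a read in the atlas. Its rank by reads was 3 to 5 in the ileum libraries, 4 to 6 in colon, 5 to 8 in jejunum and 10 to 15 in liver. In duodenum it ranked 4 to 36, in skeletal muscle 32 to 45, in heart 35 to 55 and in brain 41 to 53. It was in the top 10 in 20 of 76 libraries and in the top 50 in 73.

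The other arm of the hairpin was listed under the rat name rno-miR-21-3p. When a hairpin is cut, usually 1 arm is kept in Argonaute and the other is lost, and the share of the 3p arm in the reads of both arms does not depend on the scaling between libraries. In tissues other than plasma the share was small, with a median of 0.405% over 71 libraries. In plasma it was 3.56%, 1.55%, 2.06%, 3.02% and 3.41%, a mean of 2.72 ± 0.877% (SD, n = 5), from 19 to 383 reads of the 3p arm. Among the libraries of other tissues 1 lay above the lowest of plasma, Skeletal Muscle 5 at 2.14%, which rests on 3 of 140 reads (95% Wilson interval 0.731% to 6.11%). The next was Kidney 1 at 0.918%. Bone marrow had the lowest shares, with 0 to 6 reads of the 3p arm a library and a mean of 0.0803 ± 0.0543% (n = 5). The study isolated RNA from bone marrow and from plasma by procedures separate from that for the organs, and reports low RNA integrity in both. For these samples tissue, procedure and RNA integrity cannot be told apart.

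Over the 73 libraries with reads of both arms, tissues held 73.1% of the variance of the log2 ratio of the arms (permutation test with 100000 resamples, p = 1e-05, the smallest it can give). Without plasma, a choice made after the values were seen, they held 56.1% (permutation p = 1e-05 over 68 libraries). The 3p arm itself was higher in plasma than in the mean of the other tissues by 2.55 on the log2 scale (SE 0.35, adjusted p = 2.39e-09 in edgeR), where 27.9% of miRNAs were called higher, while the 5p arm was not called. In bone marrow the 3p arm was lower, with a log2 difference of -1.97 (SE 0.62, adjusted p = 0.0071 in edgeR), and 24.6% of miRNAs were called lower. In ileum, colon, jejunum and liver both arms were called higher, with log2 differences of 1.89 to 2.58 for the 3p arm. In RPM the 3p arm had its highest tissue median in ileum, 239 RPM, and 138 RPM in plasma. Intervals cover counting error only.

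**Figure D5:**
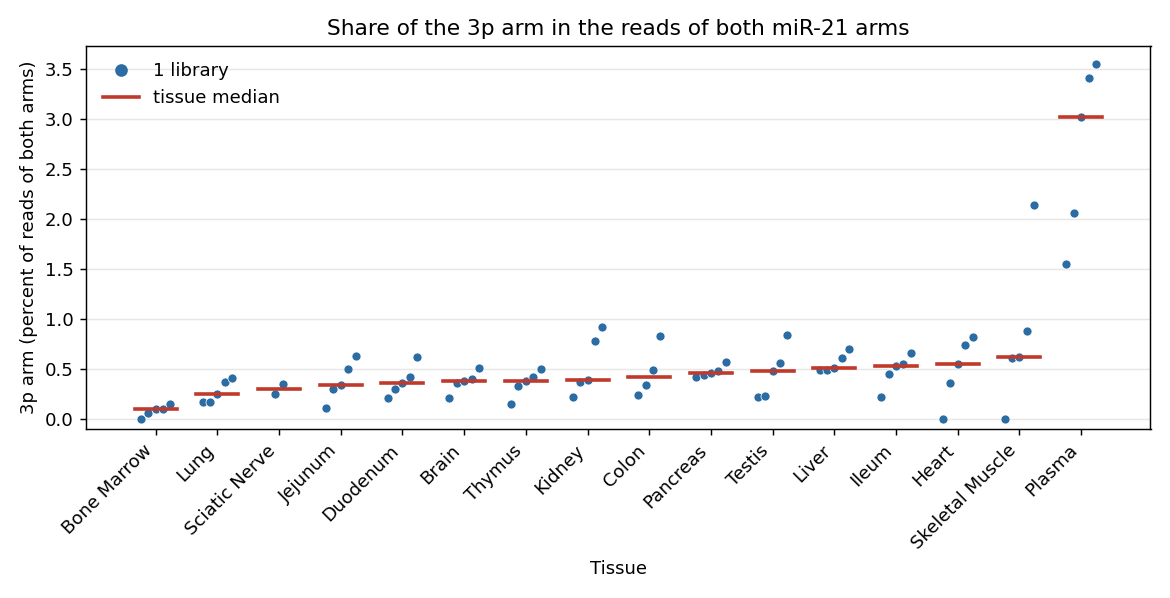
Share of the 3p arm in the reads of both miR-21 arms (percent) in each library (points), tissues ordered by their median (red lines). The 5 plasma libraries lie between 1.55% and 3.56%, and 1 other library, a skeletal muscle library with 3 reads of the 3p arm, lies above 1%.

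The miRNAs with the most similar tissue pattern were sought among 265 with a tissue median above 100 RPM, by Spearman's rho with miR-21 over the 16 tissue medians of RPM. These are descriptions, since the tissues share dogs, libraries and the scaling by the total. The median rho was 0.0059. The 5 highest were miR-194 (0.894), which is made with miR-192 and known from gut and liver, the 3p arm of miR-21 (0.844), miR-18a of the growth-related miR-17 cluster (0.832), miR-374a (0.791) and miR-374b (0.788). miR-194 ran from a median of 25.8 RPM in skeletal muscle to 28457 RPM in jejunum, a far wider range than that of miR-21. miR-18a peaked in jejunum with 408 RPM, and miR-374a and miR-374b in bone marrow with 419 and 524 RPM. The lowest were miR-149 (-0.703), which was highest in brain at 1063 RPM, miR-486 (-0.668), highest in plasma, and miR-99a (-0.65), highest in sciatic nerve at 3174 RPM.

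Other miRNAs linked to injury, inflammation and fibrosis did not share a single tissue pattern with miR-21. The list held 16, and all were tested. miR-21 is 1 of them and is part of each count and median below. It was itself called higher in lung, colon, jejunum, ileum and liver and lower in brain and heart. In lung 10 were called higher and 0 lower, beside 20.6% and 8.75% of all miRNAs tested, with a median log2 difference of 0.98 against -0.19 for all miRNAs tested. In colon and jejunum 9 were called higher and 0 lower, with a median of 0.86 in each. Of all miRNAs tested there, 18.5% and 27.3% were called higher and 6.46% and 13.1% lower. In ileum 6 were called higher and 0 lower (median 0.72, all miRNAs 0.0033), beside 19% and 8.75% of all miRNAs tested. In liver 8 were called higher and 4 lower (median 0.65, all miRNAs -0.36), beside 23.3% and 12.5%. In brain 12 were called lower and 3 higher (median -2.21, all miRNAs 0.13), beside 28.1% and 45.2% of all miRNAs. In pancreas 10 were called lower and 2 higher, beside 19.2% and 21.2% of all miRNAs, and in heart 8 lower and 5 higher, beside 17.3% and 21.9%. miR-146a and miR-155, induced by NF-kB signalling in immune cells, were highest in ileum like miR-21, with medians of 5536 and 2264 RPM, and had a rho of 0.785 and 0.691 with it. miR-223, an miRNA of myeloid cells, was highest in bone marrow at 3686 RPM, and the median of the fibroblast-linked miR-214 was highest in sciatic nerve at 366.5 RPM, a tissue in which miR-21 was low. miR-132, a neuronal activity miRNA, was highest in brain at 5525 RPM, with a rho of 0.0265.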

How the data were processed

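Small RNA of 76 libraries was analysed, and each library was grouped by the tissue of its label. Per the study's methods, the authors aligned adaptor-clipped reads to CanFam3.1 with OSA without mismatches and counted reads on known or putative miRNA loci of dog, rat or human annotation. The deposited counts were used together with the deposited total count of reads on miRNAs. The deposited RPM is a signal scaled by the authors to that total, and recomputed values differed by a relative 2.89e-09 at most. Unlisted miRNAs were set to 0 reads. Of 77 sample names, 1 matched no label and was not used, and 1 labelled colon sample had no values. edgeR 4.0.16 was used in R 4.3.3 (TMM, filterByExpr, quasi-likelihood, 1 fit over all tissues, each gene's p adjusted by Benjamini-Hochberg within a contrast), with DESeq2 1.42.0 as an alternative. Exact rank-sum and permutation tests were run in Python 3.11.15 with scipy 1.17.1. Calls needed an adjusted p under 0.05. Procedures were tested on simulated data. miR-21 and all lists were chosen with earlier results of these data known. Named miRNAs were the arm partner, the normalisation miRNAs of the study, 8 miRNAs set beside miR-21 for liver, the 5 most and 3 least similar, the listed markers and the leading miRNA of a library. The labels do not say which dog gave a library, so p-values measure the spread between libraries. Mature sequences and Q-RT-PCR values were not analysed here. A count of 0 allows up to 3 reads, 0.380 to 19.0 RPM.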

Additional observations from a re-analysis of the deposited data

Results flagged for a closer look

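In 30 groups of 4 to 10 libraries, covering the level of miR-21 and the share of its 3p arm by tissue, 2 held a library far from the others by Dixon's criterion, which chance meets in about 1 of 20 groups. Bone Marrow 4 had 26686 RPM of miR-21 while the other bone marrow libraries had 16441 to 18730 RPM. Its ratio to the 3 normalisation miRNAs was 3.97, and the others ranged from 2.32 to 3.59. Ileum 4 had 30603 RPM while the others had 53030 to 61775 RPM. Its ratio to the normalisation miRNAs, 6.70, lay inside the range of the ileum, 6.34 to 8.88. miR-143 was at 430677 RPM in Ileum 4 and at 135640 to 252406 RPM in the other ileum libraries, and the leukocyte miRNAs summed to 9208 RPM against 21844 to 24422 RPM. Their part in the level of miR-21 was not tested.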

How the results depend on the processing

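The differences of heart, skeletal muscle, brain, liver, jejunum, colon and ileum from the other tissues kept their direction and their side of the threshold under every edgeR and DESeq2 alternative run. With each replicate of the tissue itself left out in turn they ranged from -2.77 to -2.25 in heart, -2.59 to -2.16 in skeletal muscle, -3.30 to -3.04 in brain, 1.5 to 1.77 in liver, 2.09 to 2.23 in jejunum, 2.28 to 2.43 in colon and 2.41 to 2.60 in ileum. The ranges were -2.42 to -1.91 in sciatic nerve, whose call was lost without either library, 0.55 to 1.46 in duodenum, whose call was lost without Duodenum 2, 0.51 to 1.21 in bone marrow, -1.08 to -0.70 in testis, -0.76 to -0.44 in pancreas and 0.94 to 1.06 in lung. Signs changed where no call was made, in plasma (-0.44 to 0.064, positive without Plasma 1), kidney (-0.23 to 0.65, negative without Kidney 2) and thymus (-0.70 to 0.0083, positive without Thymus 3). Over all 76 fits that left out 1 library of any tissue, some ranges were wider. They were -0.44 to 0.49 in plasma, -0.76 to -0.11 in pancreas, 0.82 to 1.21 in lung and 1.41 to 1.77 in liver. Relative to the 3 normalisation miRNAs plasma (-1.52, the median of all miRNAs moving by -1.02) and pancreas (-1.05, moving by -0.41) passed the threshold, as did bone marrow (0.64), and the fold between highest and lowest tissue was 15.9 instead of 34.7. Bone marrow also passed with RLE factors (0.95), library totals (1.05), no filter on low counts (1.02) and DESeq2 (0.95). Testis passed without the filter (-0.82) and with the libraries low in thymocyte or germ cell miRNAs left out (-1.29), an alternative added after the data were seen, under which thymus turned to 0.73. Lung lost its call with RLE factors and DESeq2 (0.46 in both), and kidney turned to -0.20 with library totals. These scalings moved the median difference of all miRNAs by more than 0.1 in 12 to 14 of 16 tissues, by -1.02 to 1.09 at most. The cause of each change was not tested. The count of tissue pairs called was 75 to 87 under the other settings and 73 to 88 with single libraries left out. With medians in place of means 1 tissue, ileum, met the criteria of enrichment, at 7.5 times the median of all other samples. Adjusted over all tissues together, the exact rank-sum test passed 5 tissues, with colon (0.028) in place of brain (0.066). Of the 5 miRNAs most like miR-21, 3 stayed by Pearson's r, 3 with TMM-scaled counts and 4 over single libraries. The plasma mean of the 3p share was 2.51% to 3.01% with each replicate left out. Depth limits the 3p arm most, with 0 reads in 3 libraries. No paired analysis was run because the labels carry no dog number and the replicate numbers follow sample order. The organ samples are listed in repeated runs of the same tissue order, but no label says that a run is from 1 dog.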
